A study of Mus musculus with 4 samples.

Results

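Heparan sulfate is a long, sulfated sugar chain that cells attach to a small number of core proteins and display on their surface and in the surrounding matrix. The genes described here build, modify and carry this chain, and they were chosen by name from a list of 36: 22 enzymes and 14 core proteins. A listed gene counted as a member when the array's annotation gives it at least 1 probe set of its own. This held for 34 of the 36, out of 18193 genes on the array. Ndst1 was not analysed here, and the only probe set naming Hs3st5 is also assigned to Apba3 and was left out. They were compared between 2 kinds of sorted retinal neuron, amacrine cells and bipolar cells.

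The chain is made in the Golgi. Polymerases of the Ext family extend a backbone of alternating sugars, N-deacetylase/N-sulfotransferases begin its sulfation, an epimerase converts part of its uronic acid, and 2-O, 6-O and 3-O sulfotransferases then add further sulfate groups. Outside the cell the endosulfatases Sulf1 and Sulf2 remove 6-O sulfate again. Secreted proteins such as Slits, Wnts and fibroblast growth factors bind the finished chain, and in the developing nervous system heparan sulfate is known for its part in axon guidance and synapse formation.

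The cells came from mice of mixed C57Bl6 x CD1 background at postnatal day 6, the offspring of males with the MP transgene and females without it. The transgene marks cells with the fluorescent protein CFP, and the labels do not name the promoter that drives it. MP amacrine cells were sorted as CFP+VC1.1+ neurons from papain-dissociated retina, and MP bipolar cells as CFP+VC1.1– neurons after VC1.1+ cells had been depleted on a magnetic column. VC1.1 is an antibody that recognises amacrine but not bipolar cells. Amacrine cells are inhibitory interneurons, and bipolar cells relay photoreceptor signals to the inner retina. Each group had 2 replicates drawn from separate litters, with 1 array and about 1000 cells per replicate, and all 4 samples carried the same transgene.

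The median probe set intensity was 44.5 to 47.1 on the 4 arrays, and their small number limits the precision of every value. The summed intensity of 10 amacrine markers was 6284 and 6305 for amacrine cells but 602.4 and 623.6 for bipolar cells. Of 9 tested, 7 were higher in amacrine cells by the test described below. Among these 7, Neurod6, Tfap2b and Tfap2c lay below the array median on both bipolar arrays, so they had to differ in order to be tested. The sum of 10 bipolar markers was 4091 and 3551 for amacrine cells but 10960 and 11220 for bipolar cells. Of 8 tested, 4 were higher in bipolar cells. Of the 4 not called, Pcp2 and Gnao1 leaned to bipolar cells (-1.21 and -0.22, log2). Isl1 and Prkca leaned to amacrine cells (0.64 and 0.25). The sum of 8 rod photoreceptor markers was 11030 and 6522 for amacrine cells and 7409 and 9115 for bipolar cells. None of the 7 rod markers tested was called, though 2 had an unadjusted p under 0.05. Of 5 tested cone photoreceptor markers, 1 was higher in each cell type. The sum of 10 Müller glia markers was also higher for amacrine cells, 4618 and 4253 against 2220 and 2734. Most of that gap came from Vim. Of the 7 tested, Vim, Dkk3 and Slc1a3 were higher in amacrine cells, Rlbp1, Apoe, Glul and Clu were not called, and the Müller water channel Aqp4 was too dim to test at 4.72 to 37.8. Of 5 tested microglial markers 1 was higher in amacrine cells, as was 1 of 5 tested vascular markers, Pdgfrb (66 and 69.6 against 4.01 and 9.56). Over all genes tested, 6.54% were called in that direction. Pdgfrb and the Müller marker Slc1a3 lay below the array median on both bipolar arrays, so they also had to differ in order to be tested. Of 4 tested ganglion cell markers 1, Thy1, was called, and it was higher in bipolar cells. The 3 not called, Pou4f1, Nefl and Nefm, lay higher in amacrine cells without overlap (log2 differences 1.08, 2.23 and 3.13). Of the 2 tested horizontal cell markers none was called by limma or had an unadjusted p under 0.05. Both amacrine replicates stood apart in some genes. Replicate 1 had 1631 for the neurofilament gene Nefm and 517 for the horizontal cell marker Calb1, where replicate 2 had 136 and 39.5, and its ganglion cell markers summed to 3754 against 1816. Replicate 2 differed in RNA ends and microglial markers. Its Gapdh probe sets had a 3-prime excess of 3.21 (log2), where the remaining arrays had 1.78 to 2, and its microglial markers summed to 4063, where the remaining arrays had 454.3 to 1658. In such sorted pools, fewer cells expressing a gene and less RNA per cell cannot be told apart.

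Of the 34 genes, 25 were bright enough to be tested, and 9 of these differed between the 2 cell types (36%, against 13.5% of all 11583 genes tested). A gene was called when its adjusted p from limma, over all genes tested, was under 0.05. The amacrine cells had more of 5 genes, namely Hs6st2, Sulf2, Sdc1, Gpc2 and Spock1, where 6.54% of all genes were called in that direction. The bipolar cells had more of 4, namely Ext1, Extl2, Hs3st2 and Sulf1, where 6.92% of all genes were called. Among the enzymes 6 of 13 tested were called, 2 higher in amacrine and 4 higher in bipolar cells. Among the cores 3 of 12 were called, all 3 higher in amacrine cells. The 2 cell types did not overlap in 15 of the 25 genes, compared with 53.3% of all genes tested. The median log2 difference, amacrine minus bipolar, was -0.15 over the 25 and -0.03 over all genes. Of the 25 genes, 20 lay above the array median on all 4 arrays. Hs3st2 passed the filter only through the bipolar arrays, and Sdc1 and Spock1 only through the amacrine arrays, so these 3 had to differ in order to be tested. With no filter on dim genes 5 of the 34 were called, against 785 of all 18193 genes. Ext1, Hs6st2, Sulf1 and Gpc2 were not among the 5 (adjusted p 0.0548 to 0.139, limma).

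**Figure D1:**
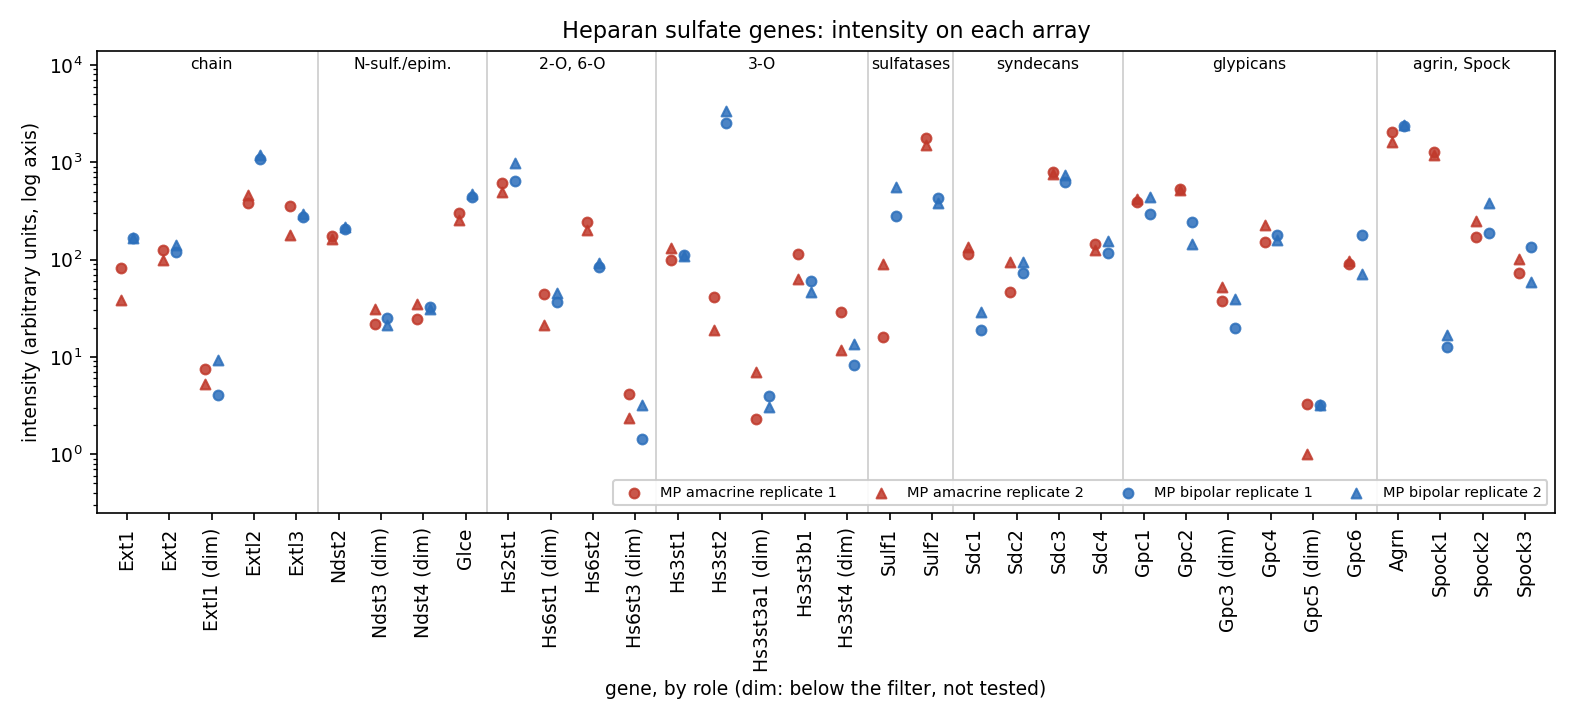
Intensity of the brightest probe set of each of the 34 genes on each of the 4 arrays (log axis, arbitrary units), ordered by role. Red marks the 2 MP amacrine and blue the 2 MP bipolar arrays, and genes marked dim were not tested. The colours are far apart for Hs3st2 and Spock1, in opposite directions, and mixed for most of the syndecans and glypicans.

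Of the 4 Ext family genes tested, the 2 that were called were both higher in bipolar cells. Over all genes tested, 6.92% were called in that direction. Extl2 is an Ext-like glycosyltransferase that acts on the linker region by which the chain is joined to its core. Its intensity was 382 and 464 in amacrine cells and 1082 and 1194 in bipolar cells. Both bipolar arrays were above both amacrine arrays, with a log2 difference of -1.40 (SE 0.21, adjusted p = 0.00325, limma, n = 2 per group). Its 2nd probe set gave -1.18 (adjusted p = 0.0495 in a limma fit over 23648 probe sets).

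Ext1, which together with Ext2 forms the polymerase that elongates the backbone, had intensities of 82.8 and 38.5 in amacrine cells and 166 and 165 in bipolar cells. The groups were separate, and the amacrine replicates differed more from each other than the bipolar ones did. The log2 difference was -1.31 (SE 0.30, adjusted p = 0.0230, limma). It was not called without MP amacrine replicate 2 (-0.88, adjusted p = 0.0566), the array with the 3-prime excess above, nor without MP bipolar replicate 1 (adjusted p = 0.0824) or replicate 2 (adjusted p = 0.0917). Its 2nd probe set, at 72.8 and 69.8 against 98.1 and 132, gave -0.57 (adjusted p = 0.203).

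Ext2, the partner of Ext1, had 127 and 99.1 in amacrine and 120 and 142 in bipolar cells. These values overlapped, and the log2 difference of -0.19 had a 95% interval of -0.71 to 0.33. Extl3, which starts the heparan sulfate backbone on the linker, overlapped as well, at 355 and 180 against 271 and 295 (-0.15, interval -0.88 to 0.59). Extl1 was too dim to be tested, at 4.04 to 9.20 on the 4 arrays.

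N-deacetylase/N-sulfotransferases remove acetyl groups from the new backbone and put sulfate in their place. Ndst2 had intensities of 175 and 164 in amacrine and 205 and 218 in bipolar cells. The bipolar values were higher without overlap but did not pass the test (log2 difference -0.29, interval -0.78 to 0.20). Ndst3 (21.2 to 31.3) and Ndst4 (24.4 to 35.3) were too dim on the 4 arrays to be tested.

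Glce, the C5-epimerase that turns glucuronic into iduronic acid, had 303 and 255 in amacrine and 436 and 476 in bipolar cells. Both bipolar arrays lay above both amacrine arrays. The log2 difference of -0.68 (interval -1.20 to -0.17) was not called after adjustment over all genes (adjusted p = 0.0925, limma). Of the 2 tested genes of this step none was called by limma, while 1, Glce, had an unadjusted p under 0.05.

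Of the enzymes that sulfate the chain at the 2-O and 6-O positions, Hs6st2 was higher in amacrine cells. Hs6st2 is a 6-O sulfotransferase, and its intensity was 246 and 199 in amacrine and 84.1 and 93.0 in bipolar cells. The amacrine values were all above the bipolar values, with a log2 difference of 1.18 (SE 0.22, adjusted p = 0.00925, limma). It was not called without MP bipolar replicate 1 (adjusted p = 0.0803) or replicate 2 (adjusted p = 0.0585). No other probe set of Hs6st2 was above the filter, and the dim ones leaned the other way (-0.22, -0.15 and -0.11).

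Hs2st1, the 2-O sulfotransferase, had 608 and 495 in amacrine and 648 and 975 in bipolar cells. The bipolar values were higher but spread widely, and the log2 difference of -0.52 (interval -1.11 to 0.07) was not called. Of its 3 other probe sets above the filter, 2 also gave a negative difference, and 1 gave 0.42. The 6-O sulfotransferases Hs6st1 (21.3 to 44.8) and Hs6st3 (1.44 to 4.14) were too dim to be tested, so among the 6-O enzymes only Hs6st2 could be compared.

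The 3-O sulfotransferases make the rarest modification of the chain, and among them Hs3st2 held the largest difference of all 25 genes. Its intensity was 40.9 and 19.0 in amacrine cells, against 2540 and 3367 in bipolar cells. It was thus below the array median in both amacrine replicates and far above it in both bipolar replicates. The log2 difference was -6.04 (SE 0.30, adjusted p = 1.85e-05, limma, n = 2 per group), and -6.66 or -5.00 with 1 or 64 in place of 16 added to each intensity. Both other probe sets went the same way. The 2nd brightest had 17.98 and 5.18 against 1621 and 2439, a difference of -6.22. The 3rd, the only one whose name does not mark it as able to match other transcripts, had 20.1 and 21.0 against 564 and 709, a difference of -4.15. All 3 were called in the fit over all probe sets (adjusted p = 2.01e-04 for each, limma).

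Of the 2 other genes of this subfamily that were tested, neither was called by limma or had an unadjusted p under 0.05. Hs3st1 had 98.7 and 132 in amacrine and 110 and 109 in bipolar cells, with overlapping values and a log2 difference of 0.05 (interval -0.46 to 0.57). Hs3st3b1 had 115 and 63.7 in amacrine and 60.4 and 46.1 in bipolar cells. It lay slightly higher in amacrine cells without passing the test (0.57, interval -0.08 to 1.22). Hs3st3a1 (2.32 to 7.06) and Hs3st4 (8.31 to 28.9) were too dim to be tested.

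The 2 endosulfatases, which trim 6-O sulfate from finished chains outside the cell, differed in opposite directions by their brightest probe sets. Sulf1 had intensities of 16.04 and 89.4 in amacrine and 281 and 559 in bipolar cells. Both bipolar arrays were higher, although the amacrine replicates were far apart. The log2 difference was -2.83 (SE 0.54, adjusted p = 0.0104, limma). Its size depended on the amacrine array used, at -1.97 without MP amacrine replicate 1 and -3.69 without replicate 2. A 2nd probe set of Sulf1, at 59.0 and 73.0 against 120 and 195, gave a smaller difference of -1.06 (adjusted p = 0.0637), and the mean of its probe sets gave -1.28 (adjusted p = 0.0674).

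Sulf2 had intensities of 1779 and 1504 in amacrine and 433 and 383 in bipolar cells by its brightest probe set, with no overlap and a log2 difference of 1.96 (SE 0.20, adjusted p = 4.68e-04, limma). Its probe sets did not all show this. The 2nd brightest had 447 and 383 in amacrine and 526 and 482 in bipolar cells, a difference of -0.27 that did not pass (adjusted p = 0.571). The 3rd had 300 and 155 against 42.8 and 39.2, a difference of 2.03 (adjusted p = 0.00946). The 2 probe sets that favour amacrine cells are of the kinds named _x_at and _a_at, and the remaining one is a plain _at set. The direction for Sulf2 therefore depends on the probe set.

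**Figure D2:**
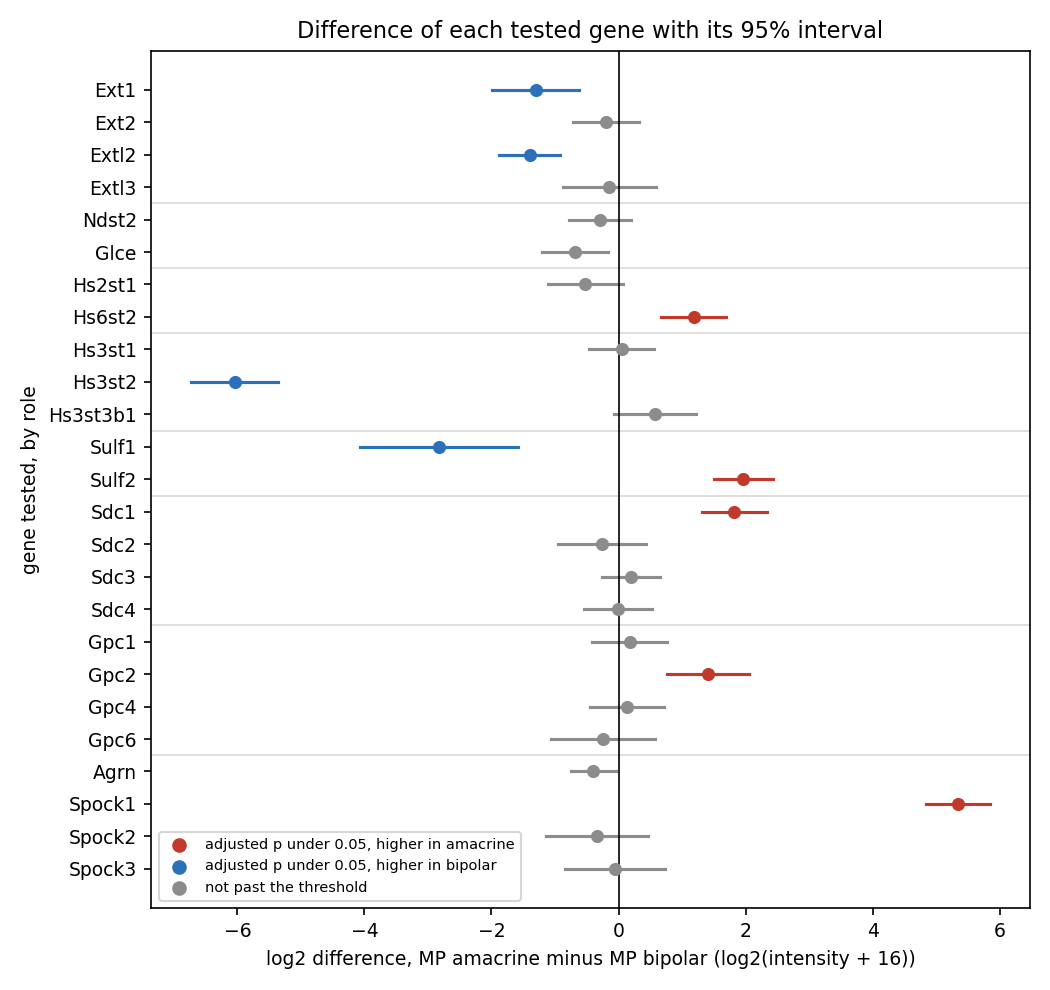
Log2 difference (MP amacrine minus MP bipolar, of log2(intensity + 16)) of the 25 tested genes, with its 95% interval from the limma fit, ordered by role. Red and blue genes passed an adjusted p of 0.05. Hs3st2 at -6.04 and Spock1 at 5.35 lie farthest from 0.

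Among the cores, syndecans are transmembrane proteins with heparan sulfate on their outer part. Sdc1 was the called syndecan, with intensities of 115 and 133 in amacrine and 18.8 and 28.8 in bipolar cells. The bipolar values lay below the array median and the amacrine values above it. The log2 difference was 1.82 (SE 0.22, adjusted p = 0.00121, limma). Its 3 other probe sets were below the filter and leaned the other way (-0.10, -0.63 and -0.04).

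Sdc3, a syndecan of nervous tissue, had 795 and 762 in amacrine and 627 and 731 in bipolar cells, a log2 difference of 0.20 with an interval of -0.27 to 0.66. Sdc2 (46.2 and 94.7 against 73.0 and 95.2) had a difference of -0.26, with an interval of -0.96 to 0.43. Sdc4 (143 and 125 against 116 and 155) had a difference of -0.01, with an interval of -0.54 to 0.52. None of these 3 was called by limma, nor did any have an unadjusted p under 0.05.

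Glypicans are held to the outer membrane by a lipid anchor. Gpc2, a glypican of developing neurons, had intensities of 531 and 522 in amacrine and 244 and 145 in bipolar cells. The amacrine replicates were close together and both above the bipolar ones, with a log2 difference of 1.41 (SE 0.28, adjusted p = 0.0124, limma). Without MP bipolar replicate 2 the difference was 1.06 and was not called (adjusted p = 0.0921).

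No other glypican was called. Gpc1 had 395 and 418 in amacrine and 293 and 436 in bipolar cells (log2 difference 0.18, interval -0.41 to 0.77). Gpc4, a glypican known for a part in forming excitatory synapses, had 152 and 225 against 177 and 158 (0.13, interval -0.44 to 0.71), and its 2nd probe set gave 0.39. Gpc6 had 89.9 and 96.5 against 177 and 70.4 (-0.24, interval -1.07 to 0.58), the bipolar replicates lying on both sides of the amacrine ones. Gpc3 (19.9 to 52.0) and Gpc5 (1 to 3.29) were too dim to be tested.

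Agrin and the Spock proteins, also called testicans, are secreted cores. Spock1 had intensities of 1269 and 1183 in amacrine and 12.5 and 16.6 in bipolar cells. Both bipolar values were near the bottom of the arrays, where 27.8% to 28.7% of probe sets lie below 16. The log2 difference was 5.35 (SE 0.22, adjusted p = 1.29e-05, limma). With 1 or 64 added in place of 16 it was 6.31 or 4.04, and as the mean of both probe sets it was 3. Its 2nd probe set was dim on all 4 arrays, at 1.08 to 28.7, so the call rests on 1 probe set.

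The 2 other Spock genes overlapped between the cell types. Spock2 had 172 and 250 in amacrine and 187 and 377 in bipolar cells (log2 difference -0.34, interval -1.14 to 0.46). Spock3 had 72.8 and 101 against 135 and 58.5 (-0.06, interval -0.85 to 0.73), and its 2nd probe set gave 0.65 without passing the test. Agrn, the core that organises the neuromuscular synapse, had 2041 and 1627 in amacrine and 2378 and 2433 in bipolar cells. The bipolar values were higher without overlap, but the difference of -0.40 (interval -0.75 to -0.04) was not called (adjusted p = 0.150, limma). It was called without MP amacrine replicate 1 (-0.56, adjusted p = 0.0293).

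**Figure D3:**
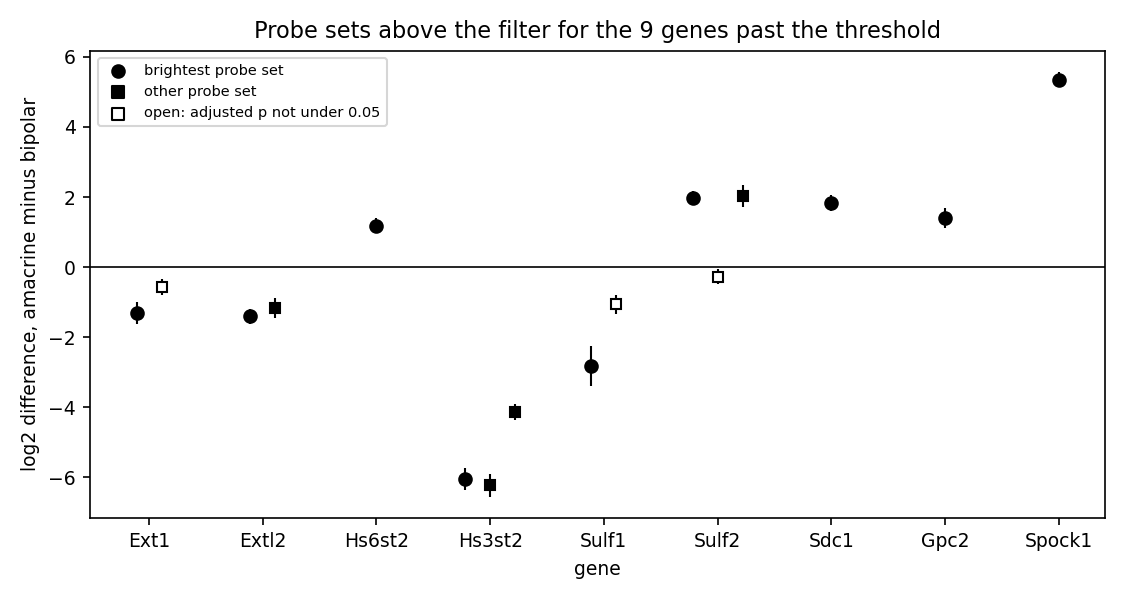
Log2 difference of every probe set above the filter for the 9 called genes, with its SE, from a limma fit over all probe sets. Circles are the brightest probe set of a gene and squares the others, and open symbols did not pass an adjusted p of 0.05. The 3 probe sets of Hs3st2 lie between -6.22 and -4.15, whereas 1 of the 3 of Sulf2 lies at -0.27.

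Across the 9 called genes, 5 had further probe sets above the filter. Of these 7 probe sets, 6 had the sign of the brightest one, and the exception was that of Sulf2. Hs6st2, Sdc1, Gpc2 and Spock1 rested on 1 probe set each. A further probe set that names Gpc2 is also assigned to Gal3st4 and was left out. Beside the 5 genes higher in amacrine cells stand the Müller glia markers. Of the 7 tested, 3 were called, all higher in amacrine cells, and the median log2 difference was 1.6. The called ones were Vim, at 1672 and 1518 in amacrine against 108 and 233 in bipolar cells, Dkk3 (1.60) and Slc1a3 (1.65). Apoe leaned the same way without being called (1.65, adjusted p = 0.119, limma). Rlbp1 had 80.9 and 156 against 20.8 and 58.8 without being called (adjusted p = 0.0680, limma). Clu went the other way without overlap or call, at 188 and 128 against 261 and 323 (-0.84, adjusted p = 0.0760), and Glul overlapped, at 2103 and 1870 against 1594 and 1937 (0.17). The part of such cells in the differences of Hs6st2, Sulf2, Sdc1, Gpc2 and Spock1 was not tested.

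The sequences before the start sites show what stands upstream of the genes with the largest differences. The RefSeq table of promoters (build GRCm38.p6) held windows for 7 of the 9 called genes, 10 windows in all, each taken here as the 250 bases before an annotated start. They are printed 5′ to 3′ on the strand of the gene, with E-boxes (CANNTG, the site bound by bHLH factors such as Neurod6) in capitals. The windows shown are those of Hs3st2 (chr7:121392046-121392295, plus strand), the gene most shifted to bipolar cells, and of Spock1 (chr13:57908333-57908582, minus strand), the gene most shifted to amacrine cells. That of Gpc2 (chr5:138279938-138280187, minus strand) is shown because it was the 1 window with a NeuroD-type E-box.
Hs3st2: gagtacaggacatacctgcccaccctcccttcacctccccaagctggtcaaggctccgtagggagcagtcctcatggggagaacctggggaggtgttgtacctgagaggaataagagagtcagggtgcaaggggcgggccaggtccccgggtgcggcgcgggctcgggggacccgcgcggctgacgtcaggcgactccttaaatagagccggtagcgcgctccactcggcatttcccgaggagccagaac
Spock1: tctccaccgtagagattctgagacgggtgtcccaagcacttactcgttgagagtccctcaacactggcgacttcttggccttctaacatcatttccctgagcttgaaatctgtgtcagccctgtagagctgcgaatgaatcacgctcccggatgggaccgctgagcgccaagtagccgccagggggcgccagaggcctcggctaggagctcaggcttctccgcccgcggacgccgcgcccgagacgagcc
Gpc2: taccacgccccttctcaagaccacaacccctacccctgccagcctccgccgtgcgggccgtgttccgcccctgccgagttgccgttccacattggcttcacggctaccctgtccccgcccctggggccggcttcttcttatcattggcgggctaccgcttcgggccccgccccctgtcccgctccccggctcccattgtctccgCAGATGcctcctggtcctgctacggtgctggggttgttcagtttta

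An E-box was found in 5 of the 10 windows, against 66.2% of all 32851 promoter windows of the same length. Neither the window of Hs3st2 nor that of Spock1 held one. The NeuroD-type E-box CAGATG, which is a special case of CANNTG, was found on either strand in the window of Gpc2 alone of the 10, and in 14.4% of all windows. The Ebf-type motif CCCNNGGG was found in the windows of Gpc2 and Sdc1, and in 11.8% of all windows. The Otx-type motif TAATCC was in none of the 10 windows, and in 6.25% of all windows. All motifs were searched on both strands, and a match is a description of the letters only.

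The rest of the pathway was followed in lists of related genes chosen by name. Genes for the linker, the sugar donors and the sulfate donor are shared by heparan and chondroitin sulfate, and 1 of the 16 tested was called. It was Pxylp1, a phosphatase acting on linker xylose, at 776 and 938 in amacrine and 1333 and 1615 in bipolar cells (log2 difference -0.77, SE 0.19, adjusted p = 0.0361, limma). The list's median difference was -0.03. Of 7 tested genes that degrade heparan sulfate, 1 was called and was higher in amacrine cells. This was Hpse, heparanase, which cleaves the chain, at 246 and 217 against 39.7 and 32.3 (2.25, SE 0.21, adjusted p = 3.12e-04). Both bipolar values lay below the array median, so Hpse had to differ in order to be tested. The list's median was 0.20.

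Other cores that can carry heparan sulfate went both ways, with 3 of 6 tested called, 1 toward amacrine and 2 toward bipolar cells, and a median of 0.17. Nrp1, a receptor for semaphorins and VEGF, was higher in amacrine cells, at 755 and 736 against 194 and 138 (2.08, SE 0.24). Tgfbr3, betaglycan, was higher in bipolar cells, at 23.6 and 15.4 against 99.9 and 205 (-2.18, SE 0.32), as was the neurexin Nrxn3 (-0.78, SE 0.12). The adjusted p of these 3 lay between 9.36e-04 and 0.00407 (limma).

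Receptors and ligands that bind heparan sulfate were split evenly, with 4 higher in each cell type among 20 tested and a median of 0.09. The 4 with the largest differences were the guidance ligands Slit1 (-4.27, SE 0.59) and Slit2 (-1.92, SE 0.11), the synaptic organiser Lrrtm3 (-2.17, SE 0.27) and the heparin-binding growth factor Mdk (1.85, SE 0.21). Slit2 had 1532 and 1749 in amacrine and 6155 and 6313 in bipolar cells. Slit1 differed between the amacrine replicates, at 102 and 10.4, against 943 and 1198 in bipolar cells. Slit3 was too dim to be tested, at 14.6 to 33.1. The bipolar samples were higher in Slit1 and Slit2 as well as in Hs3st2 and Sulf1, and a link between these genes was not tested.

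Chondroitin sulfate, the related chain built on the same linker, served for comparison. Among its enzymes 9 were tested and 2 called, 1 in each direction, with a median of -0.04. Chst15, which adds a further sulfate to sulfated chondroitin, was higher in amacrine cells, at 289 and 211 against 7.65 and 2.74 (adjusted p = 5.60e-05, limma). Both bipolar values lie below the 16 added before the log, so no size is given for this difference. Chst11, a chondroitin 4-O sulfotransferase, was higher in bipolar cells (-1.10, SE 0.23). Of 5 tested chondroitin sulfate cores, neurocan, Ncan, was higher in amacrine cells (1.63, SE 0.22), and Ptprz1, a receptor phosphatase, in bipolar cells (-1.48, SE 0.19).

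Over all these related genes that were not members, 17 of 63 tested were called (27%), 8 higher in amacrine and 9 in bipolar cells, where the background is again 13.5%. The median absolute log2 difference was 0.68 over the 13 tested heparan sulfate enzymes, 0.25 over the 12 tested cores, 0.23 over these 63 genes and 0.26 over all genes. These counts and medians include genes that passed the filter only through their brighter group, and no test was made between the lists. Of the related genes named above, Hpse, Mdk and Chst15 passed only through the amacrine arrays. Tgfbr3 passed only through the bipolar arrays. These genes had to differ in order to be tested.

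**Figure D4:**
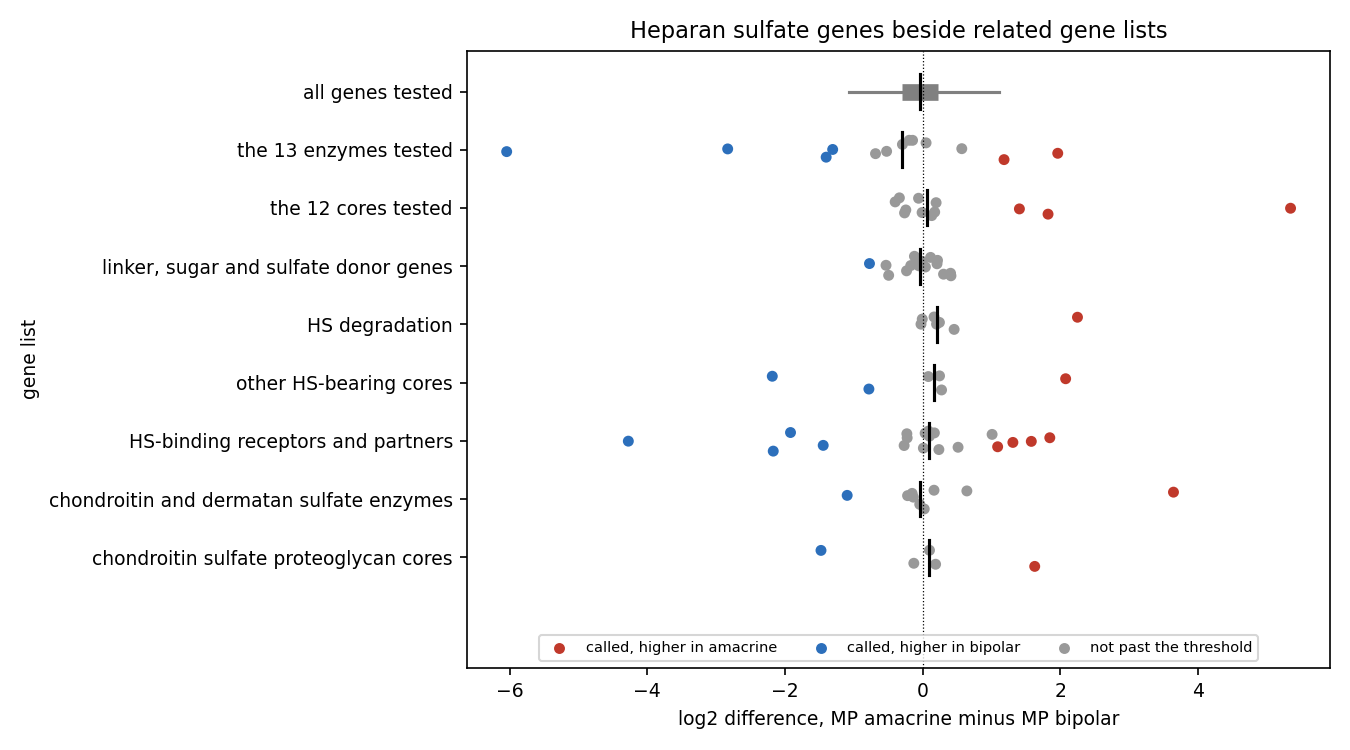
Log2 difference (MP amacrine minus MP bipolar) of each tested gene in the heparan sulfate enzymes, the cores and 6 related lists, with each list's median as a black bar. For all 11583 genes the grey box spans the middle 50% and the line the middle 90%. Red and blue points passed an adjusted p of 0.05, and the points farthest from 0 are Hs3st2 among the enzymes and Spock1 among the cores.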

How the data were processed

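RNA was measured on 4 Affymetrix arrays, 2 of MP amacrine and 2 of MP bipolar cells, each sample placed in its group by its title. Per the labels' protocols, PicoPure-extracted RNA went through 2 amplification rounds with biotin labelling. The authors deposited 1 linear intensity per probe set and array, for 45101 probe sets, and their summary, background and scaling methods are not given in the sources used here. The largest gap between array quartiles was 0.0838 (log2), so the intensities were used as deposited, without further scaling. The table has no detection calls.

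Control probe sets (64) were dropped. Only the 34945 probe sets with 1 gene in the platform annotation were used, not the 932 with several genes or the 9160 with no gene. The brightest probe set (highest mean log2) stood for a gene, and a gene was tested if above the array median on at least 2 arrays. Tests used limma 3.58.1 in R 4.3.3 (lmFit, eBayes with trend) on log2(intensity + 16), which understates the change of dim genes. They were two-sided, with Benjamini-Hochberg adjustment over 11583 genes at 0.05. Each gene had 2 residual degrees of freedom, and eBayes added 5.83 prior degrees of freedom, estimated across all genes tested. The script was tested on simulated data.

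The members, lists and tests were chosen with earlier results of these data known. All members were named, as were up to 4 called genes of each related list by absolute difference, or its brightest tested gene where none was called. The bipolar, Müller, vascular, ganglion and horizontal cell markers named singly were chosen after their values were seen. Alternatives covered scaling, filter, pseudocount (1 and 64), choice of probe set, moderation, weights, the replicate number as a block, and each array left out.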

Additional observations from a re-analysis of the deposited data

How the results depend on the processing

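The same 9 genes were called under quantile, cyclic loess and median scaling, pseudocounts of 1 and 64, eBayes without trend, robust eBayes, array weights and the replicate block. Extl2, Hs3st2 and Spock1 were called in every alternative run. With no filter 5 genes were called (3 higher in amacrine, 2 in bipolar cells), with 785 of all genes and 11 related genes. With the mean of all probe sets 6 of the 20 genes tested were called, 3 of them higher in amacrine cells, against 1147 of all 10048 genes tested. Hs6st2 and Sdc1 were below the filter in that run and were not tested. Leaving out each array gave 6 to 10 called genes, 3 to 5 higher in amacrine cells, and 917 (without MP bipolar replicate 2) to 1939 of all genes (without MP amacrine replicate 1). A group left with 1 array is assumed to vary like the other group. With the replicate number as a block (replicate block), 9 genes and 1932 of all genes were called. The deviations of same-numbered arrays correlated at -0.0415 across genes. This value does not settle whether same-numbered arrays shared a litter or a batch.

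The only called gene that changed sign was Sulf2, to -0.274 without _x_at or _s_at probe sets and for its 2nd probe set. Among genes not called, the log2 difference of Hs2st1 was 0.418 for its 3rd probe set, that of Sdc3 -0.0376 for the mean of probe sets and -0.177 for the 2nd, and that of Sdc4 0.00879 with quantile and 0.0115 with loess scaling. That of Spock3 was 0.294 for the mean and 0.646 for the 2nd probe set, which also stood for it without _x_at or _s_at sets. Leaving out each array gave ranges of -0.604 to 0.314 for Extl3, -0.133 to 0.235 for Hs3st1, -0.677 to 0.154 for Sdc2, -0.192 to 0.179 for Sdc4, -0.0976 to 0.45 for Gpc1, -0.124 to 0.391 for Gpc4, -0.823 to 0.337 for Gpc6, -0.815 to 0.141 for Spock2 and -0.57 to 0.454 for Spock3. The cause was not tested. Genes at 16 and below have little order, and 2 arrays per group limit all values.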
